A study of Mus musculus with 12 samples.

Results

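The 10 genes described here encode dual-specificity phosphatases that remove phosphate from mitogen-activated protein kinases (MAPKs). They were the named genes Dusp1, Dusp2, Dusp4, Dusp5, Dusp6, Dusp7, Dusp8, Dusp10, Dusp14 and Dusp16, matched by symbol among the 49671 genes listed for every library, and all 10 were found. RNA was sequenced in 12 libraries from NIH 3T3, a mouse embryo fibroblast line that divides without limit. Cells transfected with a negative control siRNA or with a single siRNA against total Lap2 were serum-starved in 0.3% FBS, or were starved and then given 15% FBS over 45 min, and each of these 4 groups had 3 libraries. Lap2 (lamina-associated polypeptide 2) is made from Tmpo in membrane-anchored and nucleoplasmic isoforms. The siRNA lowers their transcript rather than removing the gene, and 1 cell line and 1 siRNA sequence were used for this RNA-seq.

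Growth factors in serum activate the RAS, RAF, MEK and ERK kinases in turn, and ERK and the related kinases JNK and p38 are active only while a threonine and a tyrosine of their activation loop are both phosphorylated. Dual-specificity phosphatases remove both phosphates. Many of their genes are themselves switched on by the ERK pathway, so that they form a negative feedback that limits a growth factor signal in fibroblasts. The family is divided by location and substrate into inducible nuclear enzymes (Dusp1, Dusp2, Dusp4 and Dusp5), cytoplasmic ERK phosphatases (Dusp6 and Dusp7), phosphatases directed mainly at JNK and p38 (Dusp8, Dusp10 and Dusp16), and small atypical enzymes that lack the MAPK-binding domain (Dusp14).

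The promoters were read from RefSeq on the GRCm38.p6 build, in windows from 250 bases before to 50 bases after the RefSeq start of the gene. Of the 10 genes, 9 had such a window (not Dusp4). A CArG box, the letters CC, then 6 letters that are each A or T, then GG, is the site known for serum response factor, and it was searched on both strands. Among the 9 genes only Dusp5 held it, in 2 adjacent copies that ended 63 bases before the start, whereas 1.81% of 27025 promoters held at least 1. TGACGTCA, the cyclic AMP response element, was in the windows of Dusp1 (1 copy) and Dusp8 (2 copies) and in 2.03% of all promoters. These 3 promoters are shown because they hold the rarer words. Each line gives 200 bases of the window, from 250 to 51 bases before the start, 5′ to 3′ on the strand of the gene, with the CArG boxes or TGACGTCA in capitals. The stretch of Dusp5 lies at chr19:53528895-53529094 on the plus strand, that of Dusp1 at chr17:26508523-26508722 on the minus strand and that of Dusp8 at chr7:142095335-142095534 on the minus strand. The RefSeq start can differ from the gene bounds given below. The windows of Dusp8, Dusp10 and Dusp14 lie within those bounds.
Dusp5: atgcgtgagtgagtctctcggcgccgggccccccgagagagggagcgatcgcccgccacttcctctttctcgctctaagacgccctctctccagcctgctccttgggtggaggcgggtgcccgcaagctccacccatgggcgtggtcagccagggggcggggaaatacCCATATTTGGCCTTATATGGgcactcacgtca
Dusp1: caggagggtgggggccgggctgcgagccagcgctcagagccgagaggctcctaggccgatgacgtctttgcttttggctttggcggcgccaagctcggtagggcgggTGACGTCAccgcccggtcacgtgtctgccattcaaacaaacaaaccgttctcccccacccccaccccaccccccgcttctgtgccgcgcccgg
Dusp8: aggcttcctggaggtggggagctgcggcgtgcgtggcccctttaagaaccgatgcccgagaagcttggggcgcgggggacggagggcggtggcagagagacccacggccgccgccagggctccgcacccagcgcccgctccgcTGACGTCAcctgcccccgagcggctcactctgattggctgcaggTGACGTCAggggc

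Of the shorter words, TGACG, which is also part of TGACGTCA, was in 5 of the 9 windows (Dusp1, Dusp2, Dusp5, Dusp8 and Dusp16) and in 23.0% of all promoters. CCGGAA, a form of the ETS site and not its only one, was in that of Dusp14 and in 16.7% of promoters. GCGGGGGCG, an EGR site, was in that of Dusp2, from 98 to 90 bases before the start, and in 3.31% of promoters. The AP-1 word TGANTCA and the word TATAAA were in none of the 9 windows and in 8.97% and 15.7% of all promoters. A match of letters is a description and does not show that a factor binds there.

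The libraries held 18026298 to 26265253 counted reads, and the 18668 genes that reached a count of more than 1 in 3 or more libraries were tested, among them all 10 phosphatase genes. Tmpo, the gene targeted by the siRNA, was at 38.4% of its control level in starved and at 22.2% in stimulated Lap2-depleted cells (log2 fold changes -1.38 and -2.17, edgeR adjusted p = 8.73e-16 and 3.77e-19), and no library of Lap2-depleted cells overlapped the controls. All 10 fibroblast markers examined (Col1a1, Vim and others) were present, whereas the summed immune, endothelial, epithelial and muscle markers reached at most 2.72, 0.803, 1.15 and 0.797 CPM (counts relative to the TMM-scaled library size), with Cd3e, Myod1 and Myog at 0 in every library. The summed fibroblast markers also moved with the siRNA: they were at 42270 to 43740 (0.3% FBS) and 38370 to 41540 (15% FBS) CPM in control cells, against 27990 to 33980 and 28720 to 31810 in Lap2-depleted cells. Total counts moved the median of all genes by -0.21 for serum with control siRNA, so these sums were not compared between serum conditions. Of the 10 markers, 7 were lower and 2 higher (Fn1 and S100a4) upon Lap2 depletion in 0.3% FBS (edgeR adjusted p under 0.05). In 15% FBS 8 were lower and 0 higher. Their part in the results below was not tested. Distances in log2 expression were taken over the 10449 genes that averaged 100 normalized counts or more. The starved Lap2-depleted library 1 lay 0.231 from the other libraries of its group (root mean square). The other 11 libraries lay 0.117 to 0.157 from theirs. The labels do not state whether the 3 libraries of a group came from separate cultures, so p-values measure the spread between these libraries, which may be technical.

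Serum raised the transcripts of 9 of the 10 genes with either siRNA. With control siRNA the 9 rose by 1.89-fold (Dusp16) to 89.2-fold (Dusp2), and Dusp7 fell. In Lap2-depleted cells the same 9 genes rose, by 1.88-fold (Dusp16) to 69.8-fold (Dusp2). Calls were made with the quasi-likelihood test of edgeR, with p-values adjusted by Benjamini-Hochberg over all 18668 genes and a threshold of 0.05. By it, 15.6% of all tested genes were called higher and 13.9% lower after serum with control siRNA, and 18.3% higher and 14.9% lower with Lap2 siRNA. The median log2 fold change of the 10 genes was 2.67 with control and 2.00 with Lap2 siRNA, beside -0.01 and 0.00 over all tested genes. No member was called lower after serum in Lap2-depleted cells (0 of 10 by edgeR, 0 also at an unadjusted p under 0.05, and 0 by DESeq2). In bulk RNA, more transcript per cell and more cells that carry it cannot be told apart.

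The effect of Lap2 depletion differed between the serum conditions for 6 of the 10 genes by the interaction test. In 0.3% FBS, 6 members were higher in Lap2-depleted cells (Dusp1, Dusp2, Dusp4, Dusp5, Dusp6 and Dusp14) and 3 were lower (Dusp7, Dusp8 and Dusp10), where 17.8% of all tested genes were called higher and 18.6% lower. The call of Dusp2 among them was lost without any of 3 single libraries. In 15% FBS, 2 were higher (Dusp2 and Dusp7) and 2 lower (Dusp6 and Dusp10), where 11.4% of genes were higher and 12.1% lower. The median log2 fold change of the members was 0.88 in 0.3% FBS and 0.07 in 15% FBS, beside 0.01 and 0.02 for all tested genes. The log2 serum response itself, tested as an interaction, was smaller in Lap2-depleted cells for 5 members (Dusp1, Dusp4, Dusp5, Dusp6 and Dusp14) and more positive for 1 (Dusp7), where 6.51% of genes had a lower and 7.09% a higher response with Lap2 siRNA. These comparisons use the same 12 libraries and each shares groups with others, so they are not independent of each other.

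**Figure D1:**
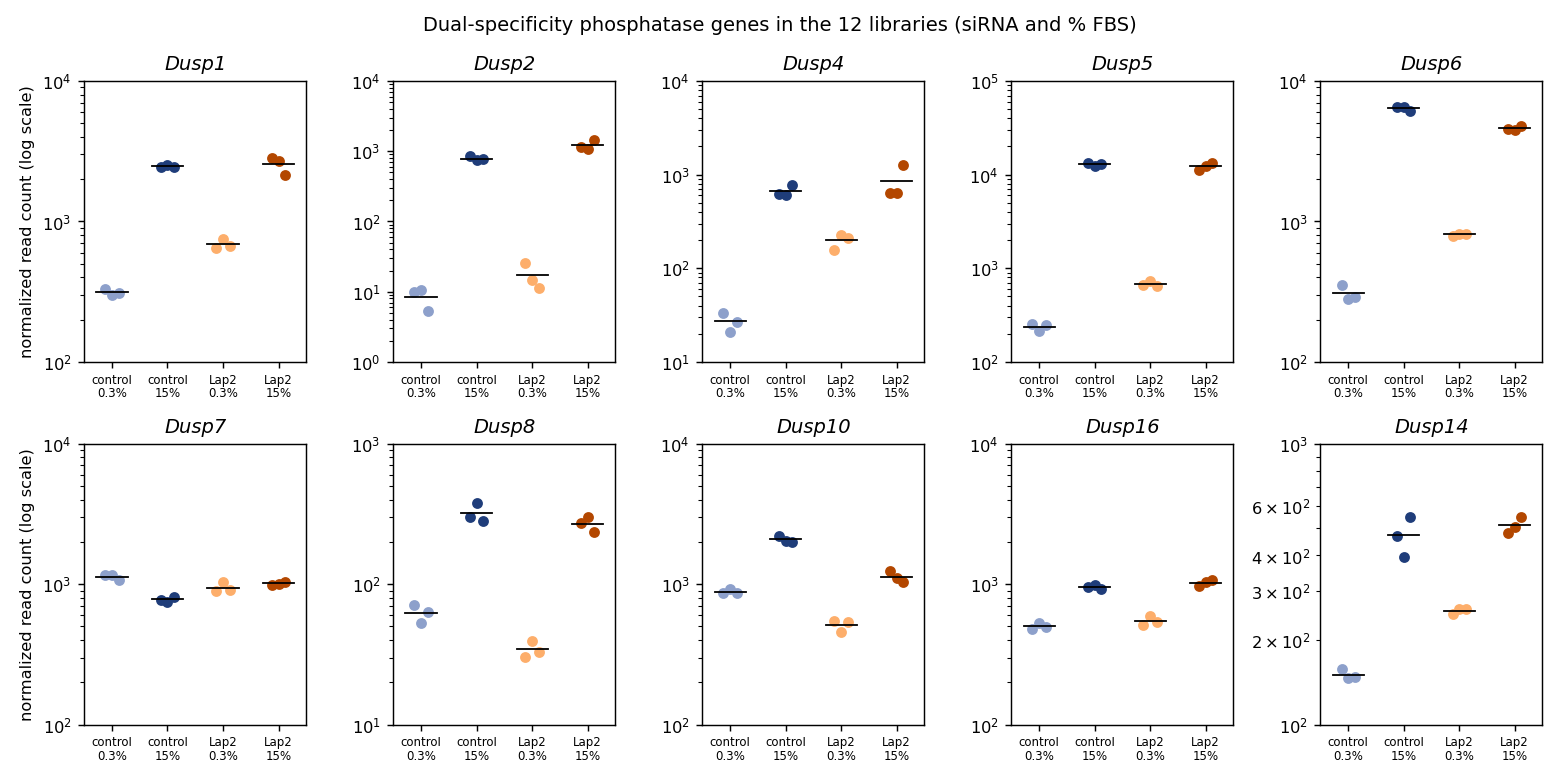
Normalized read counts (log scale, each gene with its own axis) of the 10 genes in the 12 libraries, by siRNA and percent FBS; points are libraries and bars are means of 3. In Lap2-depleted cells in 0.3% FBS, Dusp1, Dusp4, Dusp5, Dusp6 and Dusp14 lie above the starved controls, while Dusp8 and Dusp10 lie below them.

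Among the inducible nuclear enzymes, Dusp1 (MKP-1, ENSMUSG00000024190, mm10 chromosome 17 from 26505590 to 26508519, minus strand) acts on p38, JNK and ERK and is a classical immediate-early gene. It had 329, 301 and 312 normalized counts in starved control libraries and 2445, 2511 and 2456 in stimulated ones. In Lap2-depleted cells it had 643, 752 and 672 in 0.3% FBS and 2847, 2693 and 2131 in 15% FBS. The starved libraries of the 2 siRNAs thus did not overlap, whereas the stimulated ones did, with 1 Lap2 library below and 2 above all controls. The log2 fold change on serum was 2.98 ± 0.09 (SE) in control cells (edgeR adjusted p = 1.92e-23) and 1.89 ± 0.09 in Lap2-depleted cells (edgeR adjusted p = 1.03e-18). Lap2 depletion raised Dusp1 by 1.13 ± 0.10 on the log2 scale in 0.3% FBS (edgeR adjusted p = 1.41e-11), while in 15% FBS the value was 0.05 ± 0.08 (edgeR adjusted p = 0.747) and became -0.035 without the stimulated Lap2 library 1. The difference between the responses was -1.09 ± 0.12 (edgeR adjusted p = 9.28e-08).

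Dusp2 (PAC-1, ENSMUSG00000027368, chromosome 2 from 127336159 to 127338376, plus strand), a nuclear phosphatase best known from activated lymphocytes, had the largest fold response of the 10 genes. It was near the limit of detection in starved cells, with 10, 12 and 5 reads in the control libraries and 28, 14 and 11 reads in the Lap2-depleted libraries. After scaling these were 9.81, 10.4 and 5.39 against 25.7, 14.6 and 11.3 normalized counts. Stimulated cells had 846, 747 and 767 normalized counts with control and 1168, 1086 and 1435 with Lap2 siRNA. The groups did not overlap in either serum condition, and the Lap2-depleted libraries were the higher ones. The response was 6.48 ± 0.19 on the log2 scale with control siRNA (edgeR adjusted p = 4.05e-24) and 6.12 ± 0.17 with Lap2 siRNA (edgeR adjusted p = 4.99e-25). The difference between the responses was -0.35 ± 0.38 (edgeR adjusted p = 0.627).

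Dusp2 was the only nuclear member called higher in stimulated Lap2-depleted cells, by 0.64 ± 0.10 on the log2 scale (edgeR adjusted p = 7.82e-06). In starved cells the value was 1.00 ± 0.37 (edgeR adjusted p = 0.0335), and this call rested on few reads. It was lost in a fit of only the groups compared (adjusted p = 0.142), and without the starved control library 1 (0.0568) or 3 (0.126). Without the starved Lap2 library 1, which had the 28 reads, the log2 fold change was 0.58 (edgeR adjusted p = 0.315).

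Dusp4 (MKP-2, ENSMUSG00000031530, chromosome 8 from 34807297 to 34819894, plus strand) is a nuclear phosphatase of ERK and JNK that is induced by ERK signalling. Its starved level was 33.4, 20.8 and 27.0 normalized counts in control cells and 158, 229 and 210 in Lap2-depleted cells, the largest relative rise of any member upon Lap2 depletion (7.36-fold). Stimulated libraries had 618, 600 and 768 with control and 639, 637 and 1264 with Lap2 siRNA. The stimulated groups overlapped, and library 3 of the Lap2-depleted cells stood far above its 2 companions. The same library was the lowest of its group for Dusp1.

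On the log2 scale Dusp4 rose upon stimulation by 4.62 ± 0.25 with control siRNA (edgeR adjusted p = 7.85e-17) and by 2.10 ± 0.18 with Lap2 siRNA (edgeR adjusted p = 1.91e-11). Lap2 depletion raised it by 2.88 ± 0.28 in 0.3% FBS (edgeR adjusted p = 2.85e-10). The difference between the responses, -2.52 ± 0.33 (edgeR adjusted p = 1.08e-06), was the largest of the 10 genes. In 15% FBS the Lap2 value was 0.36 ± 0.16 (edgeR adjusted p = 0.106). It depended on library 3, without which it was -0.051, and it passed the test with scaling to total counts (0.45, edgeR adjusted p = 0.0318) or without a filter on low counts (0.36, edgeR adjusted p = 0.0018). It also passed without the stimulated Lap2 library 1 (0.53, edgeR adjusted p = 0.0194) or 2 (0.53, edgeR adjusted p = 0.0179), and without the starved Lap2 library 1 (0.35, edgeR adjusted p = 0.0493).

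Dusp5 (ENSMUSG00000034765, chromosome 19 from 53529109 to 53542431, plus strand) is a nuclear phosphatase that is selective for ERK, and it is the gene with the paired CArG boxes shown above. Starved libraries had 255, 214 and 246 normalized counts with control and 670, 737 and 653 with Lap2 siRNA. In stimulated libraries it reached 13442, 12477 and 13111 with control and 11244, 12317 and 13315 with Lap2 siRNA. The siRNA groups were apart in 0.3% FBS and overlapped in 15% FBS. Serum raised it by 5.77 ± 0.09 (log2; edgeR adjusted p = 4.79e-32) with control and by 4.16 ± 0.08 (edgeR adjusted p = 2.32e-29) with Lap2 siRNA.

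Lap2 depletion changed Dusp5 by 1.53 ± 0.09 in 0.3% FBS (log2; edgeR adjusted p = 1.43e-15) and the value in 15% FBS was -0.08 ± 0.07 (edgeR adjusted p = 0.444). The responses differed by -1.61 ± 0.11 (edgeR adjusted p = 2.46e-12). A noncoding gene on the opposite strand, AC137853.2, shares 547 bases (22.1%) of the Dusp5 exons in GENCODE M21. The strand setting of the counting was not given in the sources used here, so that reads of the 2 genes may not have been told apart.

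Of the cytoplasmic ERK phosphatases, Dusp6 (MKP-3, ENSMUSG00000019960, chromosome 10 from 99263231 to 99267488, plus strand) is a widely used readout of ERK activity. It had 355, 280 and 291 normalized counts in starved control cells and 793, 816 and 820 in starved Lap2-depleted cells. In 15% FBS the order of the siRNAs was turned around, with 6493, 6514 and 6129 in control cells and 4566, 4493 and 4767 in Lap2-depleted cells. The groups did not overlap in either condition. Serum raised Dusp6 by 4.37 ± 0.08 (log2; edgeR adjusted p = 5.85e-30) with control and by 2.51 ± 0.07 (edgeR adjusted p = 2.94e-24) with Lap2 siRNA.

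Lap2 depletion raised Dusp6 in 0.3% FBS, by 1.39 ± 0.08 on the log2 scale (edgeR adjusted p = 2.22e-15). The log2 fold change in 15% FBS was -0.47 ± 0.07 (edgeR adjusted p = 1.19e-06), a decrease. The responses differed by -1.86 ± 0.10 (edgeR adjusted p = 2.66e-14). Among the 10 genes, Dusp6 was thus called higher in starved and lower in stimulated Lap2-depleted cells, and Dusp7 was called in the opposite directions.

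Dusp7 (ENSMUSG00000053716, chromosome 9 from 106368632 to 106375724, plus strand) is the close relative of Dusp6. It was the only member that fell upon stimulation of control cells, from 1154, 1165 and 1078 to 776, 743 and 815 normalized counts. Lap2-depleted cells had 894, 1031 and 904 in 0.3% FBS and 986, 1009 and 1038 in 15% FBS, and these libraries overlapped. The serum response was -0.54 ± 0.07 on the log2 scale with control siRNA (edgeR adjusted p = 4.41e-07), and 0.10 ± 0.07 with Lap2 siRNA (edgeR adjusted p = 0.337), a value whose sign depended on the scaling (-0.13 with total counts and -0.0090 with the upper quartile).

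Lap2-depleted cells had less Dusp7 than controls in 0.3% FBS (log2 fold change -0.27 ± 0.07, edgeR adjusted p = 0.00448) and more in 15% FBS (0.38 ± 0.08, edgeR adjusted p = 2.43e-04), with no overlap in either. The first of these calls was lost when libraries were scaled to total counts (-0.16, edgeR adjusted p = 0.101). The responses differed by 0.64 ± 0.11 (edgeR adjusted p = 3.82e-05), the only one among the members with this sign that passed the test.

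**Figure D2:**
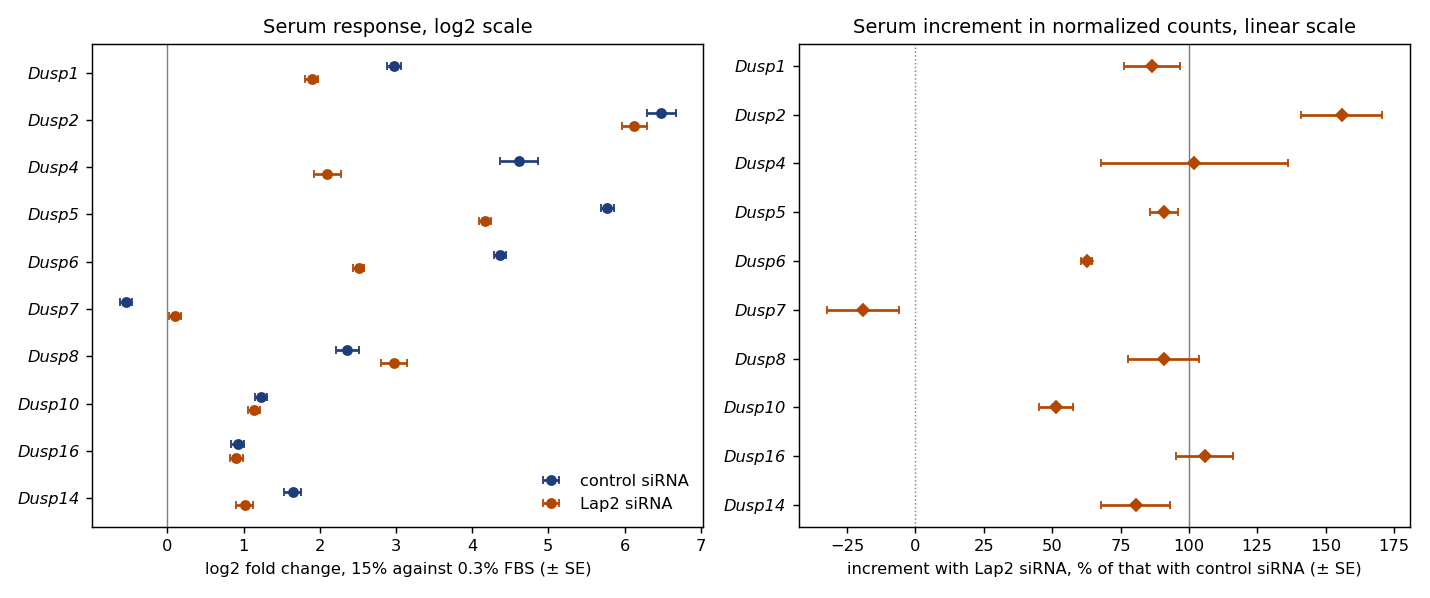
Left, log2 fold change on serum stimulation (15% against 0.3% FBS) of each gene with control and Lap2 siRNA, with standard errors from edgeR. Right, the rise in mean normalized counts with Lap2 siRNA as a percentage of that with control siRNA (linear scale, with standard errors); Dusp4 has a smaller log2 response with Lap2 siRNA (2.10 against 4.62) and a rise of 102 ± 34.1% of control, which rests on library 3.

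Of the 3 phosphatases directed at JNK and p38, 2 were lower in starved Lap2-depleted cells. Dusp8 (ENSMUSG00000037887, chromosome 7 from 142079490 to 142095843, minus strand), which acts mainly on JNK, had 71.6, 52.9 and 63.6 normalized counts in starved control cells and 30.3, 39.5 and 33.0 in starved Lap2-depleted cells. Stimulated cells had 303, 381 and 281 with control and 271, 301 and 235 with Lap2 siRNA, and these overlapped. The starved Lap2 libraries were all below the starved controls. The log2 fold change on serum was 2.36 ± 0.15 with control siRNA (edgeR adjusted p = 1.70e-14) and 2.97 ± 0.17 with Lap2 siRNA (edgeR adjusted p = 1.17e-15).

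Depletion of Lap2 changed Dusp8 by -0.87 ± 0.21 in 0.3% FBS (log2; edgeR adjusted p = 9.35e-04), and the value in 15% FBS was -0.26 ± 0.13 (edgeR adjusted p = 0.168). The difference between the responses, 0.61 ± 0.24, did not pass the test (edgeR adjusted p = 0.103), but did so without the stimulated control library 2, the highest of its group (0.75, edgeR adjusted p = 0.0437). A bidirectional noncoding gene, Gm32786, shares 66 bases (1.36%) of the Dusp8 exons on the opposite strand.

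Dusp10 (MKP-5, ENSMUSG00000039384, chromosome 1 from 184013302 to 184075636, plus strand), a phosphatase of JNK and p38, was lower in Lap2-depleted cells with and without serum. It had 864, 929 and 862 normalized counts in starved and 2217, 2038 and 1990 in stimulated control cells, and 543, 459 and 539 in starved and 1238, 1111 and 1041 in stimulated Lap2-depleted cells. No group overlapped its counterpart. On the log2 scale the Lap2 effect was -0.78 ± 0.08 (edgeR adjusted p = 2.13e-09) when starved and -0.88 ± 0.08 (edgeR adjusted p = 9.09e-11) when stimulated. Serum raised Dusp10 by 1.23 ± 0.08 with control siRNA (edgeR adjusted p = 6.86e-15) and by 1.14 ± 0.08 with Lap2 siRNA (edgeR adjusted p = 3.53e-13), and the difference of these was -0.10 ± 0.11 (edgeR adjusted p = 0.654).

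Dusp16 (MKP-7, ENSMUSG00000030203, chromosome 6 from 134715468 to 134792625, minus strand), which carries nuclear transport signals and acts on JNK and p38, was called in neither comparison of the siRNAs. Its values were 482, 533 and 497 in starved and 960, 987 and 919 in stimulated control cells, and 509, 592 and 539 in starved and 967, 1036 and 1069 in stimulated Lap2-depleted cells. The siRNA groups overlapped in both conditions. Serum raised it by 0.92 ± 0.08 on the log2 scale with control siRNA (edgeR adjusted p = 2.36e-11) and by 0.91 ± 0.08 with Lap2 siRNA (edgeR adjusted p = 3.74e-11). The Lap2 effects were 0.11 ± 0.08 when starved (edgeR adjusted p = 0.309) and 0.10 ± 0.08 when stimulated (edgeR adjusted p = 0.41), and the difference between the responses was -0.01 ± 0.11 (edgeR adjusted p = 0.961). The effect in 0.3% FBS passed the test with scaling to total counts (0.22, edgeR adjusted p = 0.033), a scaling that moved the median of all genes in that comparison by 0.11.

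The atypical Dusp14 (MKP-6, ENSMUSG00000018648, chromosome 11 from 84048041 to 84069261, minus strand) shared the direction of the inducible genes. Starved libraries had 158, 146 and 148 normalized counts with control and 248, 257 and 258 with Lap2 siRNA, without overlap. Stimulated libraries had 470, 397 and 549 with control and 482, 507 and 550 with Lap2 siRNA, with overlap. The log2 response to serum was 1.64 ± 0.11 with control siRNA (edgeR adjusted p = 8.76e-14) and 1.01 ± 0.11 with Lap2 siRNA (edgeR adjusted p = 2.40e-09), a difference of -0.63 ± 0.16 (edgeR adjusted p = 0.0053). The starved cells gained 0.75 ± 0.12 upon Lap2 depletion (edgeR adjusted p = 4.46e-06), whereas the value after stimulation was 0.12 ± 0.10 (edgeR adjusted p = 0.449).

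**Figure D3:**
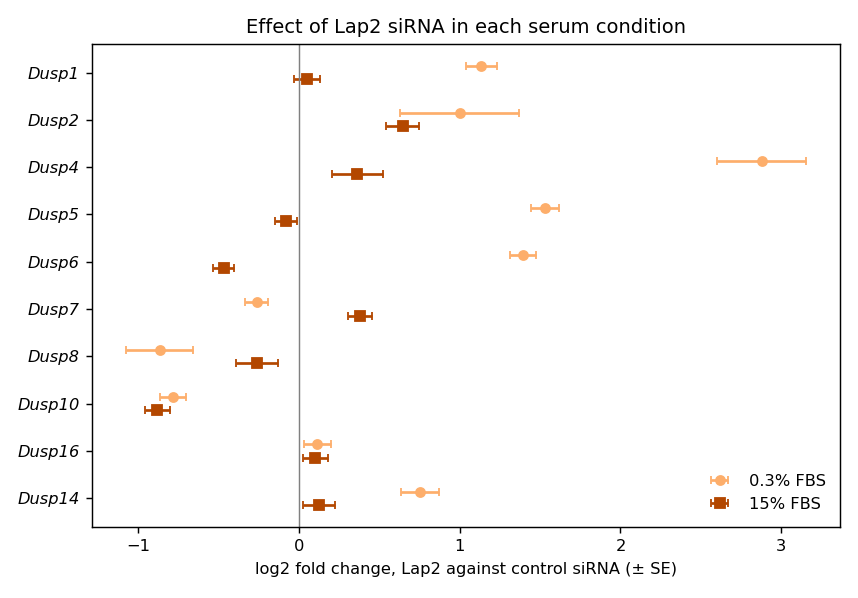
Log2 fold change of Lap2-depleted against control cells for each gene in 0.3% FBS (circles) and in 15% FBS (squares), with standard errors from edgeR. Dusp4 lies farthest to the right in 0.3% FBS at 2.88, and Dusp10 lies left of 0 in both conditions at -0.78 and -0.88.

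A smaller log2 response can come with a like rise in transcript when the starting level is higher, so the rise in mean normalized counts was also computed on the linear scale, as a description without a test. For Dusp5 the rise was 12770 ± 284 (SE) counts with control and 11610 ± 598 with Lap2 siRNA, or 90.9 ± 5.1% of control. Dusp1 rose by 2157 ± 22 and 1869 ± 220, or 86.6 ± 10.2% of control, and Dusp14 by 321 ± 44 and 259 ± 20, or 80.5 ± 12.7%. Dusp4 rose by 635 ± 53 and 648 ± 210, or 102 ± 34.1%, and without the stimulated Lap2 library 3 its rise with Lap2 siRNA was 438. In these 4 genes the stimulated siRNA groups overlapped, while the starved ones did not and were higher with Lap2 siRNA. Whether the starved level accounts for the smaller log2 responses was not tested.

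Dusp6 differed from those 4 genes, since its stimulated siRNA groups did not overlap. Its linear rise was 6070 ± 127 with control and 3799 ± 82 with Lap2 siRNA (62.6 ± 1.89% of control). Dusp10 had the smallest share among the genes raised by serum, with 1197 ± 73 against 617 ± 64 (51.5 ± 6.2%), although its log2 responses were alike within their errors. Dusp2 had the largest, with 778 ± 30 against 1212 ± 105 (156 ± 14.9%). Dusp8 (90.8 ± 13.1%) and Dusp16 (106 ± 10.4%) lay between. The starved level as a percentage of the stimulated level went from 4.08% with control to 23.5% with Lap2 siRNA for Dusp4, from 4.84% to 17.6% for Dusp6, from 12.7% to 26.9% for Dusp1 and from 1.83% to 5.59% for Dusp5, whereas it was 42.5% and 45.4% for Dusp10.

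Levels of different genes were compared as CPM per kilobase of exon, here and below with CPM relative to the TMM-scaled library size. In starved control cells the most abundant transcripts were Dusp7 (16.0 ± 0.67, SD, n = 3) and Dusp10 (13.8 ± 0.59), followed by Dusp1 (5.5), Dusp6 (4.7) and Dusp5 (4.6), which overlapped in that order, Dusp14 (3.7) and Dusp16 (3.1). Dusp8 (0.61), Dusp4 (0.47) and Dusp2 (0.20) were scarce, and the first 2 of these overlapped. After stimulation of control cells it was led by Dusp5 (249 ± 9.4), Dusp6 (96.6 ± 3.3), Dusp1 (43.4 ± 0.62), Dusp10 (32.4 ± 1.9) and Dusp2 (18.6 ± 1.2), none of which overlapped its neighbour. Dusp14 (11.5), Dusp4 (11.5) and Dusp7 (11.0) could not be ordered beyond their spread, and Dusp16 (5.8) and Dusp8 (3.1) came last.

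In starved Lap2-depleted cells, Dusp7 (13.3 ± 1.1), Dusp5 (13.2 ± 0.84), Dusp6 (12.3 ± 0.22) and Dusp1 (12.1 ± 1.0) were the most abundant. Dusp7 and Dusp5 overlapped each other and both lay above Dusp6. The range of Dusp1 overlapped those of the other 3, so that Dusp1 could not be placed among them. Dusp10 (8.0), Dusp14 (6.2), Dusp4 (3.4) and Dusp16 (3.3) followed, the last 2 overlapping, and Dusp2 (0.41) and Dusp8 (0.33) overlapped at the bottom. In stimulated Lap2-depleted cells Dusp5 (236 ± 19.9), Dusp6 (69.8 ± 2.1) and Dusp1 (45.0 ± 6.6) led as in the controls. Dusp2 (29.1 ± 4.3) stood above Dusp10 (17.6 ± 1.6), without overlap, where in control cells it stood below. Dusp10 overlapped Dusp4 (14.7), and Dusp4 overlapped Dusp7 (14.3). The range of Dusp4 (11.0 to 21.9) also took in that of Dusp14 (12.5), and Dusp4 stood above Dusp14 in library 3 alone. Dusp16 (6.2) and Dusp8 (2.6) came last.

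The summed level of the 10 transcripts was 52.6 ± 1.5 CPM per kilobase (SD, n = 3) in starved and 483 ± 11.9 in stimulated control cells, and 72.6 ± 3.1 and 447 ± 24.0 in Lap2-depleted cells. Shares of this sum are not moved by the scaling between libraries, but like the order of the levels they depend on the gene lengths used. With the length of the longest coding transcript in place of all exons, 21 of the 40 shares moved by more than the spread between libraries. In starved Lap2-depleted cells Dusp1 then had the largest share (19.8%), above Dusp7 (16.8%) and Dusp5 (15.9%), and in starved control cells Dusp16 (7.86%) stood above Dusp5 (7.67%). With all exons, the ERK-selective Dusp5 took 8.70% in starved and 51.6% in stimulated control cells, and 18.1% and 52.6% in Lap2-depleted cells. Dusp7 took 30.4% and 2.27% in control cells, and 18.4% and 3.20% in Lap2-depleted cells. Dusp10 fell from 26.3% to 6.71% of the sum with control and from 11.1% to 3.96% with Lap2 siRNA. Stimulated cells thus carried mainly Dusp5 and Dusp6 transcripts, and the share of Dusp6 was 20.0% with control and 15.6% with Lap2 siRNA. In starved cells Lap2 depletion went with larger shares of Dusp1 (16.7% against 10.5%), Dusp5, Dusp6 (16.9% against 8.88%) and Dusp4 (4.73% against 0.889%), and with smaller shares of Dusp7 and Dusp10.

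**Figure D4:**
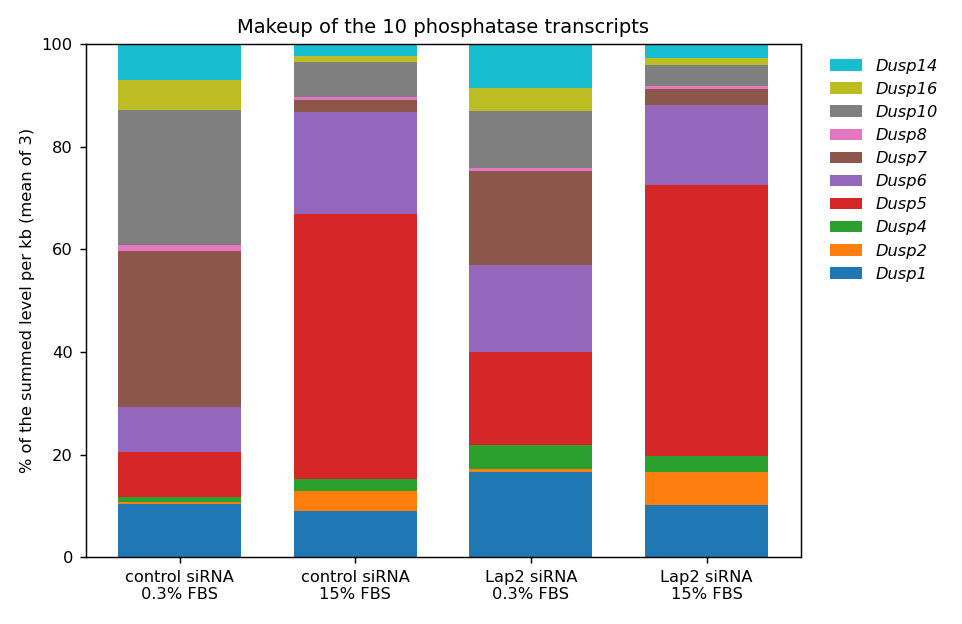
Share of each gene in the summed level (CPM per kilobase of exon) of the 10 transcripts, mean of 3 libraries per bar. Dusp7 and Dusp10 take 30.4% and 26.3% of the bar for starved control cells, and Dusp5 takes 51.6% and 52.6% of the bars for stimulated control and Lap2-depleted cells.

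The other genes of the pathway were examined as lists, described by the genes called in each direction. Of the Sprouty and Spred genes, feedback inhibitors of receptor and RAS signalling, 6 of 7 were tested. All 6 rose on serum with control siRNA, led by Spry4 (log2 3.49 ± 0.11, edgeR adjusted p = 3.09e-23), Spry2 (1.41 ± 0.07) and Spry1 (1.34 ± 0.13). With Lap2 siRNA 3 rose (Spry4 by 2.69 ± 0.10, Spry1 by 1.32 ± 0.14 and Spry2 by 1.22 ± 0.07) and Spred2 fell by 0.25. The median log2 fold change was 0.92 with control and 0.61 with Lap2 siRNA.

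Lap2 depletion in 0.3% FBS raised Spry4 (1.17 ± 0.12, edgeR adjusted p = 1.24e-09), Spred1 (0.81) and Spred2 (0.53) and lowered Spry1 (-0.55) and Spry2 (-0.20). The response of Spry4, Spred1 and Spred2 was smaller with Lap2 siRNA (interaction -0.80, -0.56 and -0.61, edgeR adjusted p = 2.30e-04, 2.10e-04 and 4.57e-04). In 15% FBS, Spry4 (0.37) and Spred1 (0.25) were higher and Spry1 (-0.57) and Spry2 (-0.39) lower in Lap2-depleted cells.

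Among the kinases that the phosphatases act on, Mapk12 alone was called with a change above 1 on the log2 scale in any comparison. Of 9 MAPK genes tested out of 10, Mapk8, which encodes JNK1, rose on serum with control siRNA (log2 0.66) and Mapk7 (-0.24) and Mapk12 (-0.87) fell, and with Lap2 siRNA Mapk7, Mapk8 and Mapk9 were among those that rose (0.32, 0.58 and 0.24). Mapk3, the gene of ERK1, was lower in Lap2-depleted cells, with log2 fold changes of -0.30 ± 0.06 in starved (edgeR adjusted p = 3.04e-04) and -0.24 ± 0.06 in stimulated cells (edgeR adjusted p = 0.00481). Mapk7 (ERK5) was also lower in both (-0.94 and -0.38), whereas Mapk8 (0.33 and 0.26) and Mapk14 (0.38 and 0.24), the gene of p38α, were higher in both. Mapk12 was lower in 0.3% FBS (-1.25 ± 0.34, edgeR adjusted p = 0.00389), while its value in 15% FBS was 0.06 ± 0.36 (edgeR adjusted p = 0.938). Its calls rest on few reads: starved libraries had 49.1, 32.9 and 27.0 normalized counts with control and 15.6, 20.8 and 9.27 with Lap2 siRNA. Mapk7 was the only kinase of this list with an interaction that passed the test (0.56, edgeR adjusted p = 3.65e-05).

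Of the 10 MAP2K and RAF genes, 3 rose on serum with control siRNA (Map2k3, Map2k4 and Map2k6) and 4 with Lap2 siRNA (these and Map2k1). The p38 activator Map2k3 had the largest response (1.04 ± 0.07, edgeR adjusted p = 1.09e-14, with control siRNA) and was also higher in Lap2-depleted cells in 0.3% (0.53) and 15% FBS (0.41). Of 9 RAS and adaptor genes, those that rose with either siRNA included Nras, Sos2 and Shc1. Nras was lower in Lap2-depleted cells in both serum conditions. Of 6 other phosphatases of MAPK tested out of 8, Ppm1b, Ppp2ca and Ppp2cb rose and Ppm1d fell upon stimulation with either siRNA.

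Of 15 other dual-specificity phosphatase genes, 11 were tested. With control siRNA 1 was called higher on serum (Dusp3, 0.58 ± 0.12) and 2 lower (Dusp22, -0.45, and Dusp19, -0.42), beside 15.6% and 13.9% of all tested genes. The median log2 fold change was -0.09 with control and 0.09 with Lap2 siRNA, beside -0.01 and 0.00 over all tested genes. Lap2 depletion raised Dusp3 in 0.3% FBS (0.43) and Dusp12 in 15% FBS (0.42), and lowered Dusp23 in 0.3% FBS (-0.80). Dusp9, the third cytoplasmic ERK phosphatase, had 25.7 normalized counts in starved and 44.4 in stimulated control cells, and its response did not pass the test (0.76 ± 0.31, edgeR adjusted p = 0.0608).

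For each of the 10 genes the tested genes with the most similar profile were sought, as the smallest root mean square difference of centred log2 CPM over the 12 libraries, among the 10449 genes that averaged 100 normalized counts or more. The nearest to Dusp1 were Id1 (0.158), Pxdc1 (0.231) and Fhl2 (0.233). For Dusp2 they were Hbegf (0.397), Arc (0.424) and Fos (0.480), for Dusp4 they included Tnfrsf12a (0.445) and Fam110c (0.494), for Dusp5 Ereg (0.235), Fosl1 (0.268) and Npas4 (0.277), and for Dusp6 Epha2 (0.241), Arl4c (0.267) and Phlda1 (0.284). These include the growth factor genes Hbegf and Ereg and the immediate-early genes Fos and Arc.

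Dusp16 lay 0.071 from Atp13a3, 0.072 from Mef2d and 0.087 from Eif1a, and Dusp7 lay 0.084 from Sh2b1, 0.105 from Cyhr1 and 0.107 from Alg2. Dusp10 was nearest to Arhgap29 (0.110), Cnn2 (0.117) and Trp53inp2 (0.127), Dusp14 to Irf5 (0.126), Vps37b (0.128) and Il1rl1 (0.147), and Dusp8 to Irx3 (0.223), Rel (0.230) and Mob3a (0.237). With 4 group means in place of 12 libraries, 20 of the 30 nearest genes were kept, among them 0 of the 3 for Dusp7 and 1 of the 3 for Dusp14.

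The genes also differed in structure, as given by the deposited coordinates and GENCODE M21. Dusp2 (2218 bases), Dusp1 (2930) and Dusp6 (4258) have short spans, below which 3.22%, 5.24% and 9.38% of the 13798 tested coding genes with a 3′ UTR fell, whose median span was 23204 bases. Dusp10 (62335 bases) and Dusp16 (77158 bases), with modest responses, have the longest spans of the 10. Dusp7, which fell on serum with control siRNA, has a span of 7093 bases, also below that median. The pentamer ATTTA, a core of AU-rich elements known from unstable transcripts, occurred 4 times in the 581-base 3′ UTR of Dusp2 and 4 times in the 690-base 3′ UTR of Dusp1. Per kilobase this was 6.88 and 5.80, where 97.4% and 95.9% of coding genes had fewer and the median was 1.28. The other members had 2.70 (Dusp10) or fewer, and Dusp7 and Dusp14 had none. Dusp5 (0.902) and Dusp6 (0.84), with large responses, lay below that median.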

How the data were processed

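RNA from NIH 3T3 cells was sequenced on Illumina NextSeq 500 after removal of ribosomal RNA, in directional libraries. The deposited values were raw counts per gene, not normalized; the authors aligned to mm10 with TopHat2 and counted with HTSeq; versions, annotation and strand setting were not given in the sources used here. The 10 genes, the pathway lists and the tests were chosen with earlier results of these data known. Groups came from the sample labels, and the stimulation time from the design text. The labels number the libraries on across the groups, so the replicate numbers only follow the order of the labels within each group.

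Genes that reached a count of more than 1 in 3 or more libraries (18668) were tested with edgeR 4.0.16 in R 4.3.3 (TMM, glmQLFit and glmQLFTest, group means of all 12 libraries, 5 contrasts, Benjamini-Hochberg adjustment over all tested genes, threshold 0.05). The standard error of a log2 fold change was its size divided by the square root of the F statistic. Normalized counts are counts over the TMM-scaled library size, times the mean of those sizes, so that fold changes of such means can differ slightly from fitted ones. Standard errors of linear rises came from the spread of the 3 libraries in each group, and those of their percentages from error propagation. Exons of GENCODE M21 within the deposited gene bounds gave the lengths. Promoters came from the RefSeq table of GRCm38.p6. Named genes were the 10 members, Tmpo, list genes past the test with an absolute log2 fold change above 1, and the 3 nearest profiles of each member. Other list genes were named to account for counts. Cell type markers were used as lists. Some genes of these lists are not reported here.

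Of the files 99.3% of gene IDs had a symbol, and 0 pairs of libraries were identical. At depths of 18026298 to 26265253 counts, standard errors were about 0.08 on the log2 scale for the abundant members and 0.37 for starved Dusp2. Simulated counts for 18668 genes in the serum contrast with control siRNA, 200 of them changed by 1 on the log2 scale, gave back 95.5% of the changed genes with 4 false calls. The changed genes were drawn only from genes above a minimum mean count, so this rate does not cover the scarcest genes. As many were raised as lowered, and all other genes kept the same mean in every group. In the real contrast 15.6% of genes were called higher and 13.9% lower. The simulated rates do not cover changes of that extent. Alternatives were DESeq2 1.42.0, 3 other scalings, 3 other filters, a block for the replicate number, fits of only the groups compared, stricter thresholds and leaving out each library. Python 3.11.15, pandas 2.3.3, numpy 2.4.6 and matplotlib 3.10.9 were used for tables and figures. ChIP-seq and protein sequences were not used here.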

Additional observations from a re-analysis of the deposited data

Results flagged for a closer look

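For 6 of the 10 genes the serum response differed between the siRNAs by the interaction test of edgeR (quasi-likelihood, Benjamini-Hochberg adjustment over all genes), which is why they are listed here. On the log2 scale, the response with Lap2 siRNA minus that with control siRNA was -2.52 for Dusp4 (adjusted p = 1.08e-06), -1.86 for Dusp6 (adjusted p = 2.66e-14), -1.61 for Dusp5 (adjusted p = 2.46e-12), -1.09 for Dusp1 (adjusted p = 9.28e-08), -0.63 for Dusp14 (adjusted p = 0.0053) and 0.64 for Dusp7 (adjusted p = 3.82e-05). All 6 passed the test with every other scaling, filter and fit that was run and with any library left out. The values of Dusp7 and Dusp14 lie under 1 in size.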

How the results depend on the processing

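Over the 50 log2 fold changes of the members, 432 values under other scalings, filters, fits and tools kept their direction and side of the threshold, 3 passed it newly, 2 lost it and 3 changed sign. With each library left out, 586 values were kept, 4 passed newly, 3 were lost and 7 changed sign. With an absolute log2 fold change above 1 also required, 0 members were lower after serum with control siRNA, 0 were lower upon Lap2 depletion in 0.3% FBS, 0 were higher and 0 lower in 15% FBS, and 0 had a more positive response. With a library left out, the number of members with a more positive response ranged from 1 to 2. No value that changed sign had passed the test. With a library left out, the Lap2 effect in 15% FBS ranged from -0.035 to 0.16 for Dusp1 and from -0.051 to 0.53 for Dusp4, and the interaction from -0.61 to 0.052 for Dusp2 and from -0.091 to 0.025 for Dusp16. Scaling to total counts gave 0.0049 for the Lap2 effect on Dusp5 in 15% FBS and -0.13 for the response of Dusp7 with Lap2 siRNA, where the upper quartile gave -0.0090. Of the linear rises, 262 values moved by less than the spread between libraries, 16 by more, and 2 changed sign. Of the 40 shares of the summed level, 21 moved by more than that spread with the longest coding transcript as length and 28 with counts without a length. The linear rise of Dusp7 with Lap2 siRNA was -91.5 and -6.69 counts with these scalings. Total counts moved the median of all tested genes by -0.21 and -0.23 for serum with control and Lap2 siRNA, and by 0.11 for Lap2 depletion in 0.3% FBS; the cause was not tested.

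Same-numbered libraries of different groups did not deviate together (correlations of -0.034 to 0.043 over 18 pairs), so the numbers were not taken as pairs. With the replicate number as a block, each count of called members was the same as without it: 9 higher and 1 lower after serum with control siRNA, 9 and 0 with Lap2 siRNA, 6 and 3 upon Lap2 depletion in 0.3% FBS, 2 and 2 in 15% FBS, and 1 higher and 5 lower interactions. The 3 libraries per group and the 5 to 28 reads of Dusp2 in starved libraries limit the precision.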
